A study of Mus musculus with 33 samples.

Results

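The genes described here are the 10 genes of the T cell receptor complex and its coreceptors that carry a probe among the 750 endogenous probes of the panel: Cd3d, Cd3e, Cd3g, Cd247, Lck, Zap70, Cd4, Cd8a, Cd8b1 and Cd28. They were taken by gene name, and all 10 were present. Bone marrow RNA came from 33 female wild-type C57BL/6 mice aged 6 to 8 weeks, and each mouse was read in 1 lane of the NanoString nCounter, which counts colour-coded probes on unamplified RNA. Mice received the BCL2 inhibitor venetoclax or the JAK1/2 inhibitor ruxolitinib by oral gavage for 2 days, or the vehicle of either drug, which was phosal, polyethylene glycol and ethanol for venetoclax and DMSO with polyethylene glycol in water for ruxolitinib. Marrow was taken on day 1, 3 or 7 after treatment. Each of the 6 drug groups held 3 mice, each of the 6 vehicle groups 2, and 3 mice were left untreated, which makes 13 groups. The drug amounts are 100 for venetoclax and 180 for ruxolitinib, given as mg/ml in the sample records and as mg/kg in the study's methods.

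T cells recognise antigen through the T cell receptor, whose antigen-binding chains signal through the CD3 chains and the zeta chain. The coreceptors CD4 and CD8 bind class II and class I MHC and bring the kinase LCK to the receptor, LCK phosphorylates the CD3 and zeta chains, and ZAP-70 docks there and passes the signal on. Mature T cells are a small fraction of the marrow and include memory cells that return there. Not all of these genes are confined to T cells: natural killer (NK) cells also use Lck, Zap70 and Cd247, and some dendritic cells carry Cd4 or Cd8a.

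All 10 genes sat near the lower end of what the assay measures. Values below are normalised counts, which are raw counts divided by the lane's factor from the housekeeping probes, and a count was called above background when it lay more than 2 SD over the mean of the 8 negative probes in its lane. Cd3d was the most often detected, above background in 32 of 33 lanes with a median raw count of 27. Cd247 and Lck passed in 29 lanes each, Cd3e and Zap70 in 27, Cd3g in 26, Cd4 in 24 and Cd28 in 22, with median raw counts from 6 (Cd28) to 21 (Lck). Cd8a passed in 16 lanes with a median raw count of 5, and Cd8b1 in 10 with a median of 3. Counts of this size carry a large counting error, and differences of a few counts between single mice cannot be resolved.

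Endogenous totals ran from 18056 to 466096 counts per lane, and 7 lanes, among them 2 venetoclax and 2 untreated lanes, had fewer than 60% of endogenous probes above background. A single count is worth between 0.294 and 5.55 normalised counts over the 33 lanes, the latter in the shallowest lane, so high normalised values of weak genes in shallow lanes rest on very few counts. The tissue label was borne out by neutrophil genes, with mean normalised counts of 71727 for S100a8, 6359 for Camp and 5043 for Lcn2. Runs were inferred from the day named in the lane headers, which need not be a record of the instrument run. This gave 3 runs, each with every lane of 1 day plus 1 untreated mouse, so effects of day and of run are not separable. For the day 3 lanes the day named there is day 2. Each drug and its vehicle shared a run in this sense.

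Averaged over the 3 days, Cd8a, Zap70 and Cd3d fell in venetoclax-treated mice against their vehicle, with log2 fold changes of -1.90, -0.97 and -0.94, where 2.9% of all genes tested passed. Cd8a was above background in 0 of the 9 drug-treated mice, so its value is not well fixed, and no call held without vehicle replicate 1 of day 3 or with untreated mice as the control. Cd8a encodes the alpha chain of CD8, which marks cytotoxic T cells, and Cd3d encodes a CD3 chain found in every mature T cell. No gene of the 10 passed the test under ruxolitinib, where 1.22% of all genes did over the 3 days. On days 1, 3 and 7 the shares of all genes were 2.75%, 0.153% and 0.153%. The comparison asks how transient BCL2 or JAK1/2 inhibition changed gene expression in the recipient's marrow. In bulk RNA, fewer T cells and less RNA per T cell cannot be told apart.

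The upstream sequences of these 3 genes are shown first, since these are the 3 that passed the test. Each is the 250 bases before a transcription start of the RefSeq table, build GRCm38.p6, on the gene's own strand, and capitals mark matches on either strand to 4 short motifs: CTTTGA or TCAAAG (the core bound by TCF-1 and LEF-1), TGTGGT or ACCACA (RUNX), CACCTG or CAGGTG (an E-box) and AGGAAG or CTTCCT (ETS). Cd3d is on chr9:44981769-44987052, Zap70 on chr1:36761798-36782821 and Cd8a on chr6:71373427-71379171, and the windows are chr9:44981536-44981785, chr1:36761548-36761797 and chr6:71373177-71373426, all on the plus strand. For Cd3d the start in the promoter table lies inside the annotated gene, so that the last bases of the window do too. For Zap70, which has 3 windows in the table, the one at the start of the annotated gene was taken.
Cd3d: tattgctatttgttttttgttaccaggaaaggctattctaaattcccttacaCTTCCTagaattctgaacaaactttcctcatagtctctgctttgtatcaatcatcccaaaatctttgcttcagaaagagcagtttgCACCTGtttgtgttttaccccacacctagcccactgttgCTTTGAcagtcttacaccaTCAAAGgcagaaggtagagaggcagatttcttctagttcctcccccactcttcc
Zap70: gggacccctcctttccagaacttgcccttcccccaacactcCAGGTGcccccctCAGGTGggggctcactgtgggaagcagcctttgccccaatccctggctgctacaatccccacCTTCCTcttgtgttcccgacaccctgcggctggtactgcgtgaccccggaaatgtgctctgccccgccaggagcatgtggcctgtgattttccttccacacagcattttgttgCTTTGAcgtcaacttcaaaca
Cd8a: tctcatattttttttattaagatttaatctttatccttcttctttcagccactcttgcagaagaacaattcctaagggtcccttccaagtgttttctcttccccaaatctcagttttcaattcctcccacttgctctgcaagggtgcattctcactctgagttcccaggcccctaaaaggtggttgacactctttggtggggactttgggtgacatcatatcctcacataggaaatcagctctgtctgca

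Cd3d held 2 TCF-1/LEF-1 cores, at 73 and 54 bases before the start, besides an E-box and an ETS core. Zap70 held 1 TCF-1/LEF-1 core at 21 bases before the start, 2 E-boxes and an ETS core. None of the 4 motifs was found in the Cd8a window, which says only that these letters do not occur there. None of the capitalised matches overlap. Such short motifs are common: of 32851 windows of the same length, 13.8% held the TCF-1/LEF-1 core, 14.0% the RUNX core, 17.2% the E-box and 29.5% the ETS core. Windows were at hand for 7 of the 10 genes. A match is a description of the sequence and not evidence of binding.

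Among the CD3 chains, Cd3d gave the clearest values. In venetoclax-treated mice the normalised counts were 22.2, 11.2 and 19.1 on day 1, 6.96, 22.7 and 20.9 on day 3, and 22.6, 30.8 and 14.4 on day 7. In the venetoclax vehicle they were 22.7 and 31.9, 40.4 and 33.4, and 27.7 and 47.7 on the same days. The drug-treated mice lay below both vehicle-treated mice on days 1 and 3, the former only by 22.2 against 22.7, where the 22.2 is 4 raw counts in the shallowest lane and not above background. They overlapped them on day 7 through 1 mouse at 30.8. Over the 9 drug-treated mice the mean was 19.0 ± 7.13 (SD) against 33.96 ± 8.97 in 6 vehicle-treated mice, and the raw counts summed to 162 and 252. The fitted log2 fold change over the 3 days was -0.94 (SE 0.23), with an adjusted p of 0.0153 by edgeR's quasi-likelihood test. The Cd3d call was lost with limma, without background subtraction (-0.87, adjusted p 0.0611) and with it (-1.12, adjusted p 0.0606). In the ruxolitinib arm Cd3d ran from 19.8 to 49.5 (median 28.4) under the drug and from 22.04 to 49.2 (median 29.9) under its vehicle, which overlap. Untreated mice had 32.0, 29.9 and 43.8. Ordered by group mean, the 3 venetoclax groups were the lowest of the 13, at 16.8 ± 8.59 on day 3, 17.5 ± 5.66 on day 1 and 22.6 ± 8.23 on day 7, but they did not differ from each other, or the highest of them from ruxolitinib day 7 at 25.8 ± 7.28, by more than their spread.

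None of the other 3 chains passed. Cd3e, whose gene neighbours Cd3d on chromosome 9, ran from 4.24 to 11.1 (median 8.69) under venetoclax and from 5.58 to 16.1 (median 11.4) under vehicle. Its log2 fold change was -0.57 (SE 0.26, adjusted p 0.414), and it was -0.38 without vehicle replicate 1 of day 1. Cd3g, the third gene of the cluster, ran from 2.61 to 12.2 under venetoclax and from 3.46 to 28.1 under vehicle, with a log2 fold change of -0.39 (SE 0.38, adjusted p 0.846). With each mouse left out it ran from -0.15 (without venetoclax replicate 2 of day 1) to -0.72 (without venetoclax replicate 3 of day 3). The 3 drug-treated mice lay below both vehicle-treated mice on day 7 only, for Cd3e and for Cd3g. Cd247, which encodes the zeta chain, ran from 2.37 to 27.7 and from 4.32 to 13.8, with a log2 fold change of -0.14 (SE 0.34, adjusted p 0.952), and its highest value, on day 1, was 5 raw counts in the shallowest lane. For these 3 chains the groups overlapped over the 3 days.

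Of the kinases, Zap70 fell and Lck did not pass. Zap70 was at 16.6, 10.6 and 4.24 on day 1, 14.8, 10.3 and 9.36 on day 3, and 1.74, 4.74 and 5.62 on day 7 under venetoclax. Under its vehicle it was at 15.1 and 17.5, 23.1 and 17.2, and 10.9 and 19.7. On days 3 and 7 the 2 treatments did not overlap, with venetoclax the lower, and on day 1 the mouse at 16.6, which is 3 raw counts and not above background, lay between them. The day 7 values of 1.74 and 4.74 are also not above background, at 1 and 2 raw counts. The means were 8.67 ± 5.003 in 9 mice and 17.2 ± 4.10 in 6 mice, the raw sums 83 and 126, and the log2 fold change -0.97 (SE 0.24, adjusted p 0.0162, edgeR). The Zap70 call was lost with DESeq2 (-0.98, adjusted p 0.077), with the replicate number as a block (-0.92, adjusted p 0.068) and with limma after background subtraction (-1.83, adjusted p 0.144). Zap70 under ruxolitinib ran from 6.75 to 15.7 (median 11.01) and under its vehicle from 7.02 to 17.4 (median 12.3). Among untreated mice only the 1 at 21.7 was above background, and the others had 5 and 2 raw counts. The venetoclax mean of day 7, 4.03 ± 2.04, was the lowest of the 13 in value, but only 1 of its 3 lanes was above background.

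Lck, the kinase that acts before ZAP-70, ran from 8.48 to 24.3 (median 15.8) under venetoclax and from 14.99 to 30.9 (median 20.7) under vehicle. On day 1 the drug-treated mice, at 11.1, 12.5 and 8.48, were lower than those given vehicle, at 22.7 and 16.7. Of these, the 11.1 is 2 raw counts in the shallowest lane and not above background. On days 3 and 7 the Lck values of the groups overlapped. Its log2 fold change over the 3 days was -0.46 (SE 0.21, adjusted p 0.438), and it was -0.24 without vehicle replicate 2 of day 3 and -0.0014 against untreated mice.

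**Figure D1:**
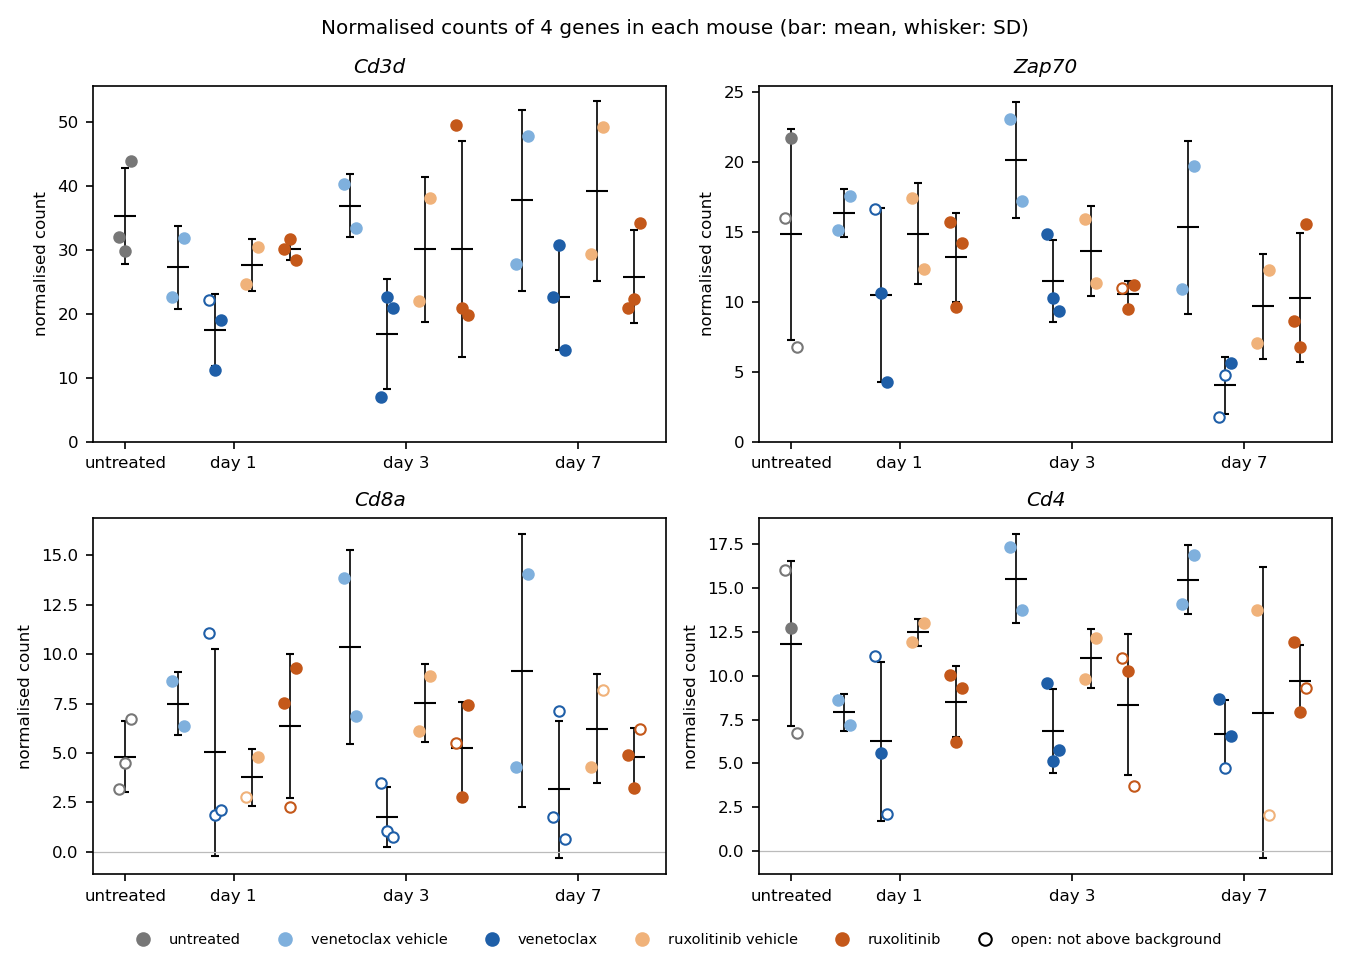
Normalised counts (vertical axis, linear) of Cd3d, Zap70, Cd8a and Cd4 in each of the 33 mice, grouped by day and treatment, with group mean and SD, and with open symbols for counts not above background. Every Cd8a point of the venetoclax groups is open, and the 3 venetoclax groups hold the lowest Cd3d means, from 16.8 to 22.6.

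Among the coreceptors, Cd8a fell and Cd4 and Cd8b1 did not pass. Cd8a was above background in 6 of 6 vehicle-treated and in 0 of 9 venetoclax-treated mice. Its raw counts under venetoclax were 2, 3 and 1 on day 1, 4, 1 and 1 on day 3, and 1, 3 and 2 on day 7. Under the venetoclax vehicle they were 8 and 8, 12 and 14, and 11 and 5. Every drug-treated mouse thus had fewer raw counts than every vehicle-treated mouse, at depths that overlapped (18056 to 466096 and 43698 to 329161 endogenous counts), with sums of 18 and 58. Among the 655 genes tested, 1 (0.153%), Cd8a itself, separated in this way, at its edge by 4 against 5 counts. This comparison of raw counts was not among the planned ones, and raw counts are not scaled for depth. The deepest venetoclax lane, with 466096 endogenous counts, held 2 Cd8a counts beside 46 of Cd3d. After normalisation, drug-treated mice ran from 0.625 to 11.1 (median 1.87) and vehicle-treated mice from 4.30 to 14.0 (median 7.75). The groups then overlapped on days 1 and 7, through the values 11.1 and 7.11, which are 2 and 3 raw counts in shallow lanes. The log2 fold change was -1.90 (SE 0.47, adjusted p 0.0139, edgeR), but since the drug-treated side lies at background its size is not well fixed, and the scaled background of those 9 lanes ran from 1.57 to 24.4. Cd8a was above background in 6 of 9 ruxolitinib-treated mice and in 4 of 6 of their vehicle, at 2.26 to 9.30 and 2.75 to 8.92. It was also not above background in any of the 3 untreated mice, at 1, 6 and 2 raw counts, 2 of them in shallow lanes.

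Cd8b1 encodes the CD8 beta chain and lies beside Cd8a on chromosome 6. It was above background in 1 of 9 venetoclax-treated and 2 of 6 vehicle-treated mice, with raw sums of 22 and 29. The log2 fold change of -0.48 (SE 0.46, adjusted p 0.846) rests on counts of 1 to 11 and cannot show whether the beta chain moved with the alpha chain. It was -0.16 without venetoclax replicate 3 of day 7 and -0.73 without replicate 1 of that group. On day 3 the drug-treated mice, at 1.74, 2.06 and 0.720, lay below the vehicle-treated mice at 2.31 and 5.40, and on day 1 they lay above.

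Cd4, the coreceptor of helper T cells, was at 11.1, 5.61 and 2.12 on day 1, 9.58, 5.15 and 5.76 on day 3, and 8.69, 4.74 and 6.56 on day 7 under venetoclax. Under vehicle it was at 8.63 and 7.17, 17.3 and 13.8, and 14.1 and 16.9. The groups did not overlap on days 3 and 7 and did on day 1, where the value of 11.1 is 2 raw counts. That value, the 2.12 of day 1 (1 raw count) and the 4.74 of day 7 (2 raw counts) were not above background. Its log2 fold change of -0.93 (SE 0.28) was close to that of Cd3d, with an adjusted p of 0.056, which missed the threshold. Under ruxolitinib Cd4 ran from 3.72 to 11.9 and under its vehicle from 2.05 to 13.7.

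Cd28, the receptor that gives naive T cells their costimulatory signal, was the 1 gene of the 10 with a positive value over the mean of the 3 days of venetoclax, at a log2 fold change of 0.62 (SE 0.52, adjusted p 0.844). Its 3 highest drug-treated values were 22.2, 23.7 and 12.7, from 4, 10 and 6 raw counts, the first 2 in shallow lanes. The other 6 drug-treated mice, at 1.87 to 8.24, overlapped the vehicle range of 3.44 to 6.92. Set against untreated mice, at 35.2, 5.98 and 10.1, the log2 fold change was -0.88, so its direction depends on the control. Against vehicle it was 0.08 without the 7 shallow lanes, 0.22 without venetoclax replicate 2 of day 7 and 1.005 without replicate 3 of day 7.

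**Figure D2:**
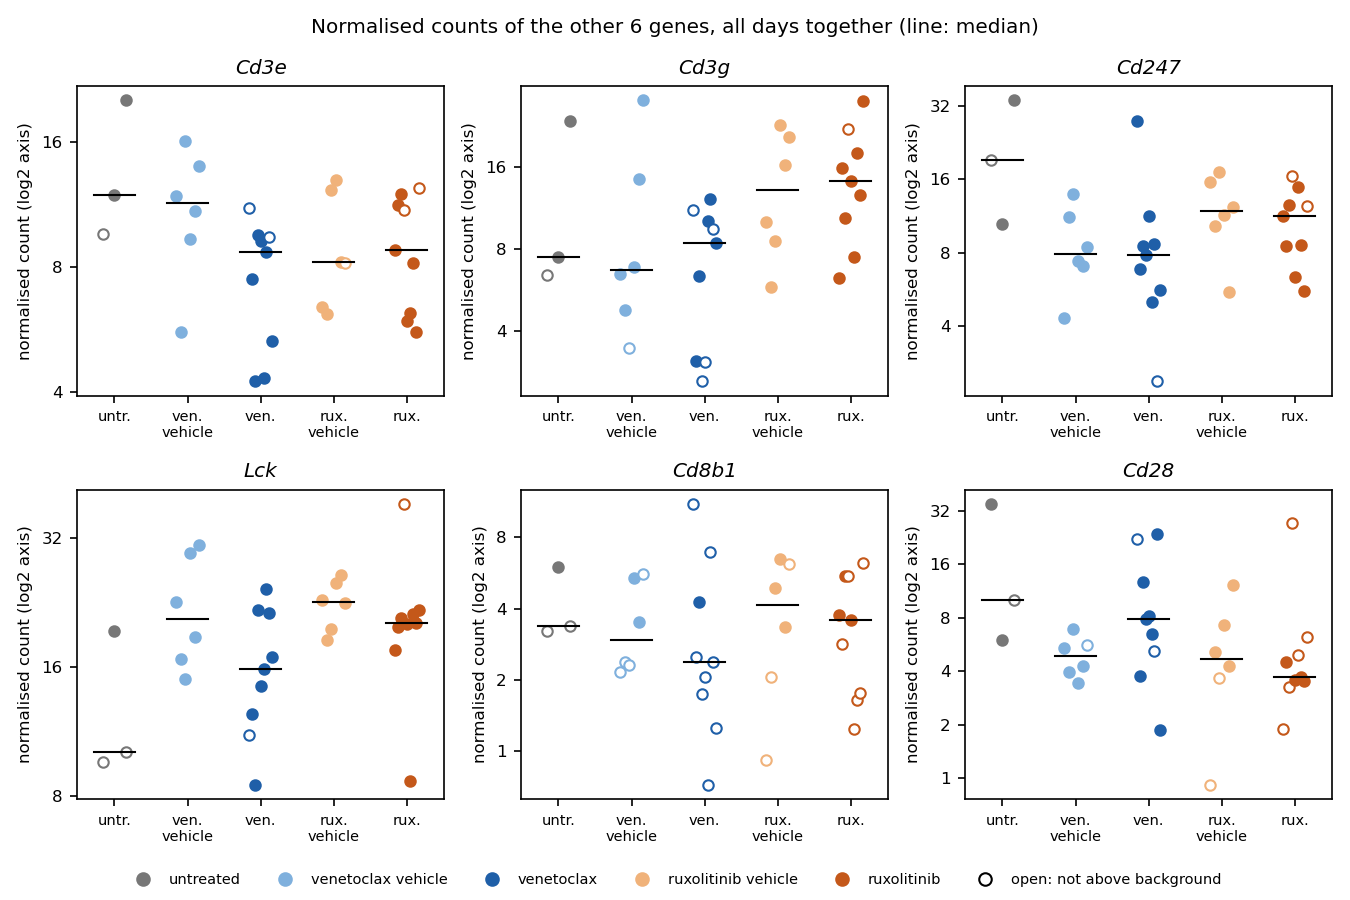
Normalised counts (vertical axis, log2 scale) of the other 6 genes in untreated, vehicle-treated and drug-treated mice, with the 3 days together, the median as a line and open symbols for counts not above background. The drug and vehicle groups overlap in every panel, and most Cd8b1 points are open.

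In all, 3 of the 10 genes passed the test for venetoclax over the 3 days, where 19 of 655 genes tested did (2.9%), all 19 lower. The median log2 fold change of the 10 was -0.52, against 0.04 over all genes tested, and 9 of 10 were below 0, against 43.7% of all genes. Under ruxolitinib 9 of 10 were below 0 too, with a median of -0.20, and under venetoclax so were 12 of 13 B cell genes. The share of all genes below 0 under ruxolitinib is not at hand, so the ruxolitinib count cannot be set against it. The calls depended on single mice: with vehicle replicate 1 of day 3 left out, 0 of the 10 and 8 of 655 genes passed, at adjusted p 0.055 for Cd3d, 0.056 for Zap70 and 0.055 for Cd8a. Only Cd8a passed without vehicle replicate 2 of day 1, only Zap70 without venetoclax replicate 2 of day 1 or replicate 3 of day 7, and Cd3d and Zap70 without vehicle replicate 1 of day 1. In these 4 fits 11, 13, 13 and 10 of 655 genes passed. Without venetoclax replicate 1 of day 3, Cd4 passed as a further gene, where 18 of 655 did. With each of the 15 mice left out in turn, the log2 fold changes of Cd3d, Zap70 and Cd8a remained negative, from -1.11 to -0.78, -1.19 to -0.89 and -2.28 to -1.46. Without the 7 shallow lanes, an alternative chosen after the data were seen, 4 passed (17 of 655 genes did): Cd3d at -1.04, Zap70 at -0.996, Cd4 at -0.96 and Cd8a at -2.34. With untreated mice as the control, 0 passed (15 of 655 genes did), with log2 fold changes of -0.995 for Cd3d (adjusted p 0.108), -1.10 for Zap70 (0.081) and -1.20 for Cd8a (0.442).

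No gene of the 10 passed on a single day of venetoclax, where 0.153% of all genes passed on day 1, 0% passed on day 3, and 0.153% passed on day 7. At an unadjusted p under 0.05, only Cd3d passed on day 1 (10.4% of all genes did). On day 3, Cd3d, Zap70, Cd4, Cd8a and Cd8b1 passed (10.7%), and on day 7 Zap70, Cd4 and Cd8a (4.73%). Cd3d had log2 fold changes of -0.92, -1.11 and -0.78 on days 1, 3 and 7, Zap70 of -0.76, -0.76 and -1.38, Cd8a of -1.37, -2.41 and -1.91, and Cd4 of -0.55, -1.13 and -1.12. Single mice moved these values by over 1.5 times: without venetoclax replicate 2 of day 1, Cd3d was -0.46 and Cd8a -0.63 on that day, and without venetoclax replicate 3 of day 1, Cd4 was -0.30. On day 7, Cd3d was -0.33 and Cd8a -0.59 without venetoclax replicate 3, and -1.30 and -3.07 without vehicle replicate 1. The difference between day 7 and day 1 passed for none of the 10 (0% of all genes), and 37 of 655 genes (5.65%) had an unadjusted p under 0.05 there. Venetoclax-treated mice lay wholly below their vehicle for 2 of the 10 genes on day 1 (Cd3d and Lck), where 15.7% of all genes did. They did so for 5 on day 3 (Cd3d, Zap70, Cd4, Cd8a and Cd8b1; 13.1%) and for 4 on day 7 (Cd3e, Cd3g, Zap70 and Cd4; 10.7%). None of the 10 was wholly below on all 3 days, and 0.611% of all genes were. They lay wholly above it for Cd8b1 on day 1 (11.8%) and for none of the 10 on day 3 (13%) or day 7 (6.56%).

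**Figure D3:**
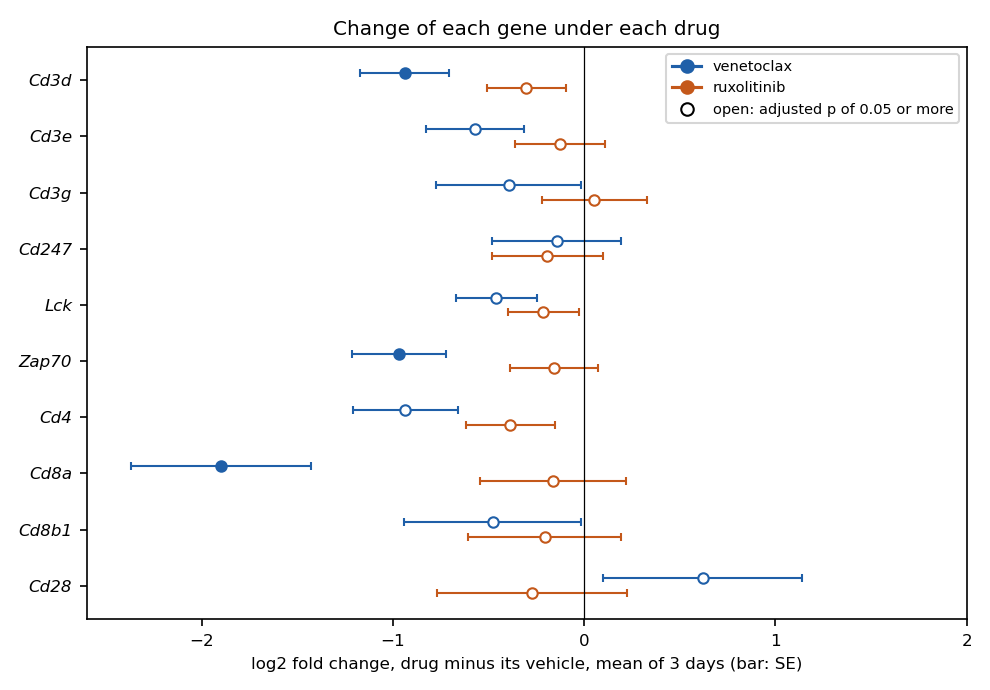
Log2 fold change with SE (horizontal axis) of each of the 10 genes under venetoclax and ruxolitinib, each against its own vehicle over the mean of the 3 days, with filled symbols for an adjusted p under 0.05. The 3 filled symbols are Cd3d, Zap70 and Cd8a under venetoclax, from -0.94 to -1.90, and the ruxolitinib values lie between -0.39 and 0.05.

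Under ruxolitinib none of the 10 genes passed the test, over the 3 days (1.22% of all genes) or on day 1 (2.75%), day 3 (0.153%) or day 7 (0.153%). The log2 fold changes over the 3 days ran from -0.39 (Cd4, SE 0.23) to 0.05 (Cd3g, SE 0.27), with a median of -0.20. Cd3e pointed one way on day 1, at 0.78, and the other on day 3, at -0.98, with adjusted p of 0.352 and 0.865. Ruxolitinib-treated mice lay wholly below their vehicle for Cd4 on day 1 (16.3% of all genes), Cd3e and Zap70 on day 3 (7.94%) and Lck on day 7 (9.62%), and wholly above it for Cd3e and Cd8b1 on day 1 (27.6%) and for none on day 3 (7.63%) or day 7 (8.09%). The difference between day 7 and day 1 passed for none of the 10 (1.53% of all genes).

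The difference between the 2 drugs was tested directly. The venetoclax effect minus the ruxolitinib effect over the 3 days was -1.74 for Cd8a (SE 0.62, adjusted p 0.216), -0.81 for Zap70 (SE 0.33, adjusted p 0.360), -0.64 for Cd3d (SE 0.31, adjusted p 0.552) and -0.55 for Cd4 (SE 0.36, adjusted p 0.805). The Cd4 value was -0.31 without ruxolitinib replicate 2 of day 3 and -1.34 without ruxolitinib vehicle replicate 1 of day 7. None of the 10 passed over the 3 days (0.611% of all genes) or on day 1 (1.68%), day 3 (0.153%) or day 7 (0.305%), so a call under venetoclax and none under ruxolitinib does not show that the drugs differed for these genes.

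Vehicle and untreated mice were compared as a background for the drugs, and solvent and gavage cannot be told apart there. None of the 10 genes passed, where 0% of all genes did and 75 of 655 (11.5%) had an unadjusted p under 0.05. The values furthest from 0 were -1.43 for Cd28 (SE 0.64, adjusted p 0.398), -0.86 for Cd247 (SE 0.41, adjusted p 0.409) and -0.53 for Cd8b1 (SE 0.56, adjusted p 0.826), and the highest was 0.49 for Lck (SE 0.30, adjusted p 0.585). Leaving out single untreated mice moved these values: without replicate 2, Cd28 was -2.23, Cd247 -1.49, Cd8b1 0.043 and Lck 1.16, without replicate 1 Cd28 was -0.52, and without replicate 3 Cd247 was -0.43. With other processing Lck ran from 0.19 to 2.94, and it passed after background subtraction, where 8 of 655 genes did. Within the 3 runs, vehicle minus untreated for Cd28 was -3.04, -0.20 and -0.66 on the log2 scale, with 1 untreated mouse in each, and the widest of these is from the day 1 run. The untreated lanes of the day 1 and day 7 runs are 2 of the shallow lanes, with 47977 and 37003 endogenous counts.

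Over the 3 days of venetoclax, the lists of other T cell surface receptors and of downstream genes had medians nearer to 0 than the 10 genes. Among 24 tested other surface receptors of T cells, 0 passed under venetoclax, with a median log2 fold change of -0.09. Under ruxolitinib Il7r, the interleukin-7 receptor chain, fell by 0.77 (SE 0.17) and Dpp4, the peptidase CD26, by 0.81 (SE 0.17), each with an adjusted p of 0.0105 (edgeR), and both are also carried by other marrow cells. Of 13 tested B cell genes under ruxolitinib, 10 were below 0 with a median of -0.39, and 2 passed: Igll1, a surrogate light chain of B cell progenitors, fell by 0.86 (SE 0.18, adjusted p 0.00808), and Pax5, the B lineage transcription factor, fell by 0.83 (SE 0.21, adjusted p 0.0264). The list went the other way on day 1, with 4 of 13 below 0 and a median of 0.30. Tnfrsf13c, the receptor for the survival factor BAFF, was higher by 1.34 on that day (SE 0.38, adjusted p 0.0473, edgeR). On day 3 the list had a median of -0.87. These B cell values were not set against all genes. Of all genes, 27.6% lay wholly above the ruxolitinib vehicle on day 1 and 16.3% wholly below it. On day 3 these shares were 7.63% and 7.94%. The part of B lineage cells in the values of Il7r and Dpp4 was not tested. For ruxolitinib over the 3 days 8 of 655 genes passed, against 2 with limma and 3 after background subtraction. The calls of Il7r, Dpp4, Igll1 and Pax5 thus did not all hold there. Of 17 tested genes of signalling and transcription downstream of the receptor, 1 passed under venetoclax, with a median of -0.07. That gene was Tcf7, which encodes TCF-1, a transcription factor of naive and memory T cells, at -1.39 (SE 0.31, adjusted p 0.00602). Tcf7 was at 5.55, 1.87 and 2.12 in venetoclax-treated mice on day 1 against 18.3 and 9.56 under vehicle, at 10.4, 15.4 and 11.5 on day 3 against 23.1 and 15.2, and at 8.69, 16.6 and 7.49 on day 7 against 19.1 and 19.7. The groups overlapped on day 3 alone, at 15.4 against 15.2. The day 1 drug-treated values are 1, 3 and 1 raw counts, none above background, and the 16.6 of day 7 was not above background either, so the size of the Tcf7 change is not well fixed. Under ruxolitinib its log2 fold change was -0.16 (SE 0.24, adjusted p 0.848).

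Markers of other cells that carry some of the 10 genes were read beside them. Of 24 tested NK cell genes, 0 passed under venetoclax, with a median of -0.20, and 17 of 24 were below 0. Their summed normalised counts ran from 328 to 477 in venetoclax-treated and from 372 to 557 in vehicle-treated mice, and Klra15 and Klra21 were above background in no lane. Of 6 tested dendritic cell genes, Bst2 fell by 0.51 (SE 0.14, adjusted p 0.0320), with a list median of -0.01. Of 13 tested B cell genes, Cd22 fell by 0.80 (SE 0.23, adjusted p 0.0476), with 12 of 13 below 0 and a list median of -0.29. The neutrophil, monocyte and progenitor lists had no gene that passed, with medians of 0.23, 0.04 and -0.13. On day 3 the neutrophil list had a median of 0.93, with 2 of 10 genes below 0, against 0.06 over all genes. Its medians on days 1 and 7 were 0.15 and -0.04, and no gene of it passed on a single day. The part of these cells in the values of Zap70, Lck, Cd247, Cd4 and Cd8a was not tested.

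**Figure D4:**
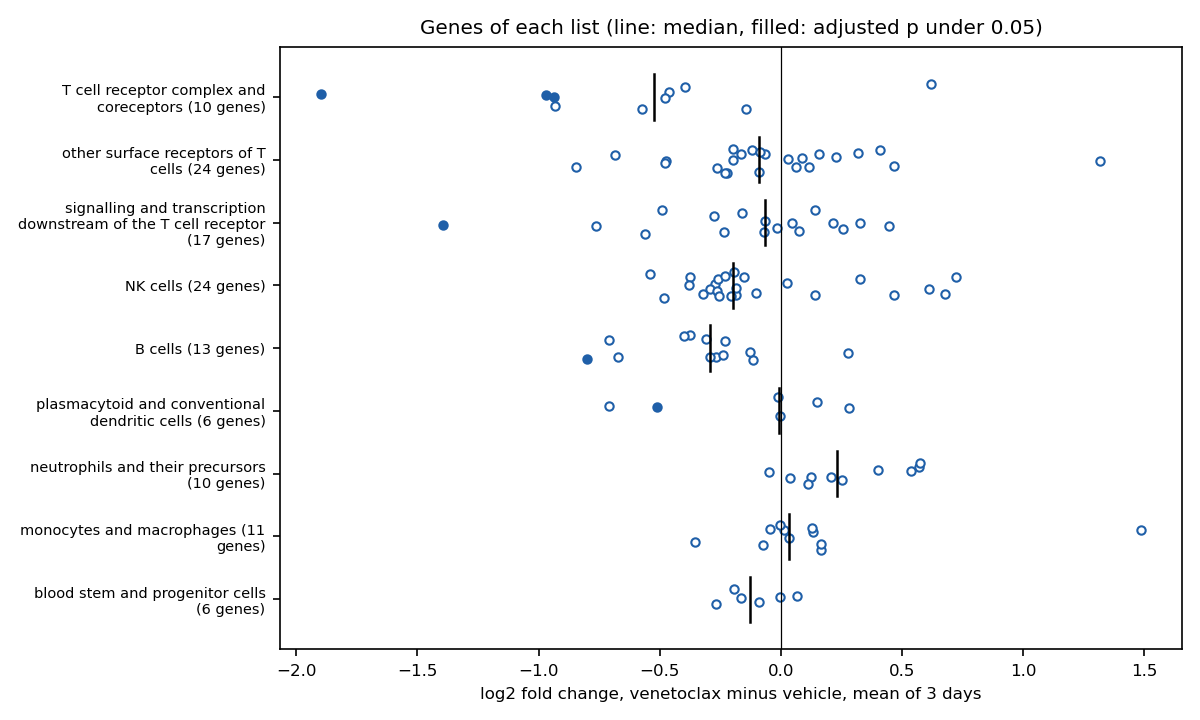
Log2 fold change under venetoclax over the mean of the 3 days (horizontal axis) for each tested gene of the 9 gene lists, with the list median as a line and filled symbols for an adjusted p under 0.05. The receptor genes have a median of -0.52, and filled symbols elsewhere are Tcf7, Cd22 and Bst2.

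The 10 genes were correlated with each other to differing degrees, and these values were not set against those of equally weak genes. With each run centred, the correlation (Pearson's r over the 26 lanes that were not shallow) of a gene with the mean of the other 9 was 0.75 for Cd8a, 0.73 for Cd3e, 0.70 for Cd3d and 0.66 for Cd4. It was lower for Lck (0.53), Cd8b1 (0.50), Zap70 (0.50), Cd3g (0.34), Cd247 (0.27) and Cd28 (-0.14). This set of lanes was chosen after the data were seen, and over all 33 lanes the order was another: 0.69 for Cd3e, 0.67 for Cd3d, 0.66 for Cd8a, 0.60 for Cd8b1, 0.47 for Cd3g, 0.45 for Zap70, 0.44 for Cd247, 0.34 for Cd4, 0.20 for Lck and 0.18 for Cd28. Outside the 10, the genes most like the mean of the 8 members other than Cd8a and Cd8b1 were Cr2 (r of 0.77), Cxcr3 (0.71), Lif (0.69), Klra5 (0.69) and Klra6 (0.68), over all 33 lanes. The lanes share the scaling factor, the drug groups and the shallow lanes, so these values are descriptions.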

How the data were processed

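The authors deposited raw barcode counts, 1 lane per mouse, exported from the nCounter without normalisation. The files hold 750 endogenous, 20 housekeeping, 8 negative and 6 positive control probes, and the lowest count is 1 (14.4% of endogenous counts). Whether an empty probe is written as 1 is not given in the sources used here. The methods' analysis with nCounter Advanced Analysis is not in these counts. The methods and the deposited records name different mouse immune panels.

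Groups were taken from the sample labels, and no lane was left out. Each lane was given a factor taken from 11 housekeeping probes, those that passed background everywhere, as their geometric mean. Counts were divided by it for the values shown and for limma. For edgeR the counts stayed raw, and the factor entered the model as the library size. The 655 genes that passed background in 2 or more lanes entered edgeR 4.0.16 (R 4.3.3) and its quasi-likelihood test, with a mean for each of 13 groups and 20 residual degrees of freedom, and p-values were adjusted by the Benjamini-Hochberg method at 0.05. Compared were either drug and its vehicle, by day and over the mean of the 3 days, the difference between the drugs, day 7 against day 1, and vehicle against untreated. The common dispersion was 0.0406, a coefficient of biological variation of 20.2%. The labels describe each lane as marrow of a mouse and say nothing of separate experiments, so p-values measure only the spread between these lanes. The code was tested on simulated data.

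The 10 genes and the gene lists were chosen with earlier results of these data known. The genes named are these 10, the genes of each other list that passed or were among its 3 highest by mean count, and the 5 most similar genes. Klra15 and Klra21 fall outside this rule and were named after their values were seen. Alternatives were TMM, total count and all 20 housekeeping probes as scaling, DESeq2 1.42.0, limma 3.58.1 on log2(normalised count + 1) with and without background subtraction, no filter, a mean count of at least 10, a replicate block, a fit of only the groups compared, pooled vehicles, untreated controls, leaving out the 2 lanes under 30000 counts, and each mouse left out. Leaving out the 7 lanes with under 60% of probes above background was added after the data were seen. Genes were matched to RefSeq, GRCm38.p6, by symbol and transcript accession.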

Additional observations from a re-analysis of the deposited data

Results flagged for a closer look

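Effects that differed between the drugs or between days, by the test of the difference or, where there was none, through drug-treated mice that lay wholly on opposite sides of their vehicle, were looked for in the 10 genes and in 8 other genes named for a call. There were 10 such results, in 5 of the 18 genes. The 8 other genes had been picked through calls in these same data, so this count is not that of an unselected set. No share over all 655 genes is at hand for this count. Groups of 2 or 3 mice are too small for a search for single outlying samples.

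Of the 10 receptor genes, 2 lay wholly above the vehicle on day 1 and wholly below it on day 3. The share of all genes that did both is not at hand. On the single days, 11.8% of all genes lay above on day 1 and 13.1% below on day 3 under venetoclax. Under ruxolitinib these shares were 27.6% and 7.94%. Cd8b1 changed sides in this way under venetoclax, with a log2 fold change on day 3 that was -2.24 relative to day 1. Its counts on those days were 1 to 4 in drug-treated mice, and 1 of those 6 values was above background. Cd3e did so under ruxolitinib, with -1.76 for day 3 relative to day 1, from drug-treated values of 8.79, 11.3 and 12.03 on day 1 and 11.01, 5.93 and 6.20 on day 3, where the 11.01 is 2 raw counts in a shallow lane and not above background. The difference between day 1 and day 3 was not tested for either gene, and each day was taken as a run of its own.

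For Tcf7, the venetoclax effect minus the ruxolitinib effect on day 1 was -3.08 (SE 0.79, adjusted p 0.0319, edgeR), with the 3 venetoclax-treated mice below and the 3 ruxolitinib-treated mice above their own vehicles. None of those 3 venetoclax values was above background. After background subtraction with limma, 0 of 655 genes passed for this difference on day 1, against 11 in the main fit, so the Tcf7 call was lost.

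For Tnfrsf13c, the same difference on day 1 was -3.30 (SE 0.73, adjusted p 0.0102, edgeR). This call, too, was lost after background subtraction with limma, where 0 of 655 genes passed. The ruxolitinib effect on Tnfrsf13c on day 7 minus that on day 1 was -2.80 (SE 0.56, adjusted p 0.00192, edgeR). Its venetoclax effect on day 3 relative to day 1 was 2.62, which was not tested. For Igll1, the venetoclax effect minus the ruxolitinib effect was 2.54 on day 3 (SE 0.45, adjusted p 0.00157, edgeR) and -1.85 on day 7 (SE 0.43, adjusted p 0.0439, edgeR). The day 3 call was lost with only the groups compared, where 0 of 655 genes passed. The day 7 call was lost with limma, with and without background subtraction, where 0 of 655 passed. For Igll1, day 7 relative to day 3 was -2.14 under venetoclax and 2.25 under ruxolitinib, and neither was tested.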

How the results depend on the processing

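The number of the 10 genes that passed was 0 in 14 of 15 comparisons and stayed 0 under every alternative in 12 of them. For venetoclax over the 3 days, 3 passed, against 1 (Cd8a) after background subtraction with limma and 0 with untreated mice as control. With each mouse left out 0 to 4 passed, where 8 to 19 of 655 genes did. The replicate block gave 2 (Cd3d and Cd8a), DESeq2 2 (Cd3d and Cd8a) and limma 2 (Cd8a and Zap70). Total count scaling, only the groups compared, pooled vehicles and the 26 deeper lanes gave 4, with Cd4 added, where 20, 20, 26 and 17 of all 655 genes passed. A mean count of at least 10 left Cd8a out of the test and gave 3 (Cd3d, Cd4 and Zap70). With untreated mice as control, 1 (Zap70) of the 10 passed for venetoclax on day 7, where 66 of 655 genes did. Against vehicle, 1 of 655 genes passed on that day. Only 1 of the untreated mice shared the run of the day 7 lanes, so run and treatment are not separated in that fit. After background subtraction 1 (Lck) passed for vehicle against untreated, where 8 of 655 did. Over all genes, 19 passed for venetoclax over the 3 days, against 14 with limma, 20 of 461 with a mean count of at least 10, 12 with DESeq2, 11 with the replicate block and 8 after background subtraction. The replicate numbers do not pair the mice: deviations of 12 same-numbered pairs correlated from -0.35 to 0.30, with 4 over 0.1.

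Signs turned only for values that had not passed the test. Cd28 under venetoclax was -0.88 against untreated mice, and Cd247 ran from -0.31 to 0.16 with each mouse left out. Under ruxolitinib Cd3e was 0.00043 and Cd28 0.056 with limma, Cd3g -0.067 after background subtraction and -0.056 with the replicate block, and Lck 0.32 and Cd8a 0.062 against untreated mice. With each mouse left out, the ruxolitinib values ran from -0.10 to 0.37 for Cd3g, -0.47 to 0.029 for Cd247, -0.62 to 0.41 for Cd4, -0.39 to 0.069 for Cd8a, -0.41 to 0.066 for Cd8b1 and -0.61 to 0.37 for Cd28. For vehicle against untreated, Cd8b1 was 0.18 after background subtraction and ran from -0.67 to 0.043 with each mouse left out. Over the 3 days of venetoclax, background subtraction gave -1.21 for Cd3e, -0.99 for Cd3g, -0.93 for Lck and -1.84 for Cd4, and untreated controls -0.89 for Cd3e, -0.71 for Cd3g, -1.17 for Cd247 and -1.01 for Cd8b1. The causes were not tested. Low counts limit Cd8a and Cd8b1, where differences of a few counts are not detectable.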
